A study of Mus musculus with 11 samples.

Results

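Lymphoid chemokines and B cell survival signals were followed in orthotopic pancreatic tumours as 10 named genes, taken by symbol from a table of RNA counts for 54232 genes. They are the homeostatic chemokines Cxcl13, Ccl19 and Ccl21a, the chemokine receptors Cxcr5 and Ccr7, the lymphotoxins Lta and Ltb, the B cell survival factors Tnfsf13b (BAFF) and Tnfsf13 (APRIL), and the BAFF receptor Tnfrsf13c. All 10 were found and all 10 passed the expression filter. RNA was sequenced from 11 tumours, 6 from hosts in which the gene for protein kinase N2 had been deleted (KO, replicates A to F) and 5 from wild-type hosts (WT, replicates A to E). Every host was a female C57BL/6 adult that carried 1 copy of a tamoxifen-inducible Cre at the Rosa26 locus (RosaCreERT2) and was given tamoxifen. KO hosts were PKN2 fl/fl and WT hosts were PKN2 +/+. Each pancreas received 1000 TB32048 cells, a carcinoma line from a female KPC mouse, a genetic model of pancreatic cancer, in which PKN2 was intact. Rosa26 is active in nearly all tissues, so the deletion was in the whole host, leukocytes and vessels included, and not in stellate cells alone. The comparison asks whether these genes differed in tumours that grew in hosts lacking PKN2.

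CXCL13 draws B cells through CXCR5, and CCL19 and CCL21 draw T cells and dendritic cells through CCR7. Lymphotoxin made by lymphocytes acts on the lymphotoxin β receptor of stromal cells, which then make these chemokines, and the loop builds lymph nodes and the lymphoid aggregates of inflamed tissue and tumours. BAFF and APRIL come largely from myeloid cells and keep B cells and plasma cells alive.

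Total counts were between 16294128 and 31121422 per tumour. WT replicates A, B and C stood apart from the others. Their share of counts in ribosomal RNA genes (Gm42418, mt-Rnr1 and mt-Rnr2) was between 1.31% and 6.39%, against 0.241% to 0.765% in the other WT and all KO libraries, and their counts fell with gene length in comparison with the remaining libraries (Spearman correlation between gene length and deviation from the mean of all libraries, -0.574 to -0.233 against 0.149 to 0.443). These features belong to WT libraries only, so that they and genotype cannot be fully told apart, and results are also given against WT replicates D and E alone. Mean Pkn2 levels were 96.6 ± 9.34 for KO (SD, n = 6) and 96.7 ± 34.6 for WT (SD, n = 5) in CPM, here counts per library size adjusted with TMM factors. The carcinoma cells kept the gene and their share of these counts was not measured, so this level does not check the labels.

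Of the 10 genes, 0 passed an adjusted p of 0.05 in either direction in the edgeR fit of all 16536 tested genes, in which 3 genes, or 0.0181%, passed. With DESeq2, 3 of the 10 passed in the higher direction (Cxcl13, Cxcr5 and Tnfrsf13c), against 3.19% of all genes that DESeq2 tested, and with limma-voom 0 passed. At an unadjusted edgeR p under 0.05 the same 3 genes were higher in KO tumours and 0 were lower, against 8.57% and 15.5% of all tested genes. These 3 genes also had adjusted p-values under 0.1, which 1.96% of tested genes had in the higher direction. The median log2 fold change over the 10 was 0.46, beside -0.03 over all tested genes, and it was above 0 in 9 of 10, beside 48.0% of all tested genes. KO and WT values overlapped for each of the 10, whereas 1.59% of tested genes were higher in KO tumours without overlap. In tissue RNA of this kind, more cells of a type and more RNA per cell cannot be told apart.

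**Figure D1:**
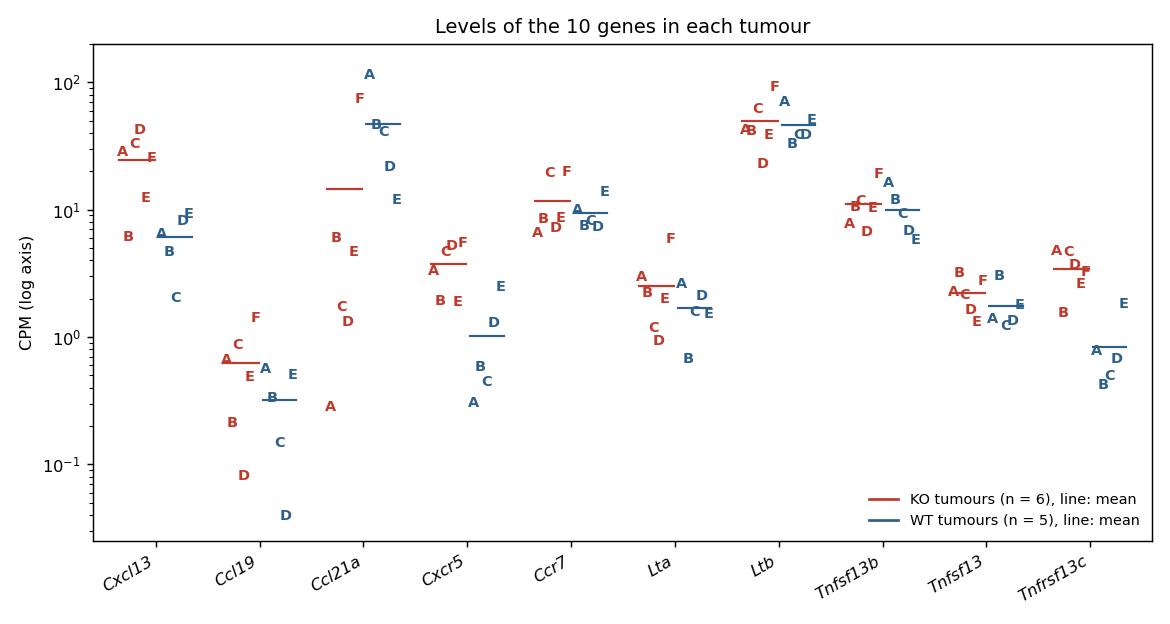
CPM of the 10 genes in each tumour on a log axis, with letters for replicates, KO tumours (n = 6) in red, WT tumours (n = 5) in blue, and lines for group means. Cxcl13, Cxcr5 and Tnfrsf13c sat higher in most KO tumours, and Ccl21a sat lower in all KO tumours but replicate F.

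**Figure D2:**
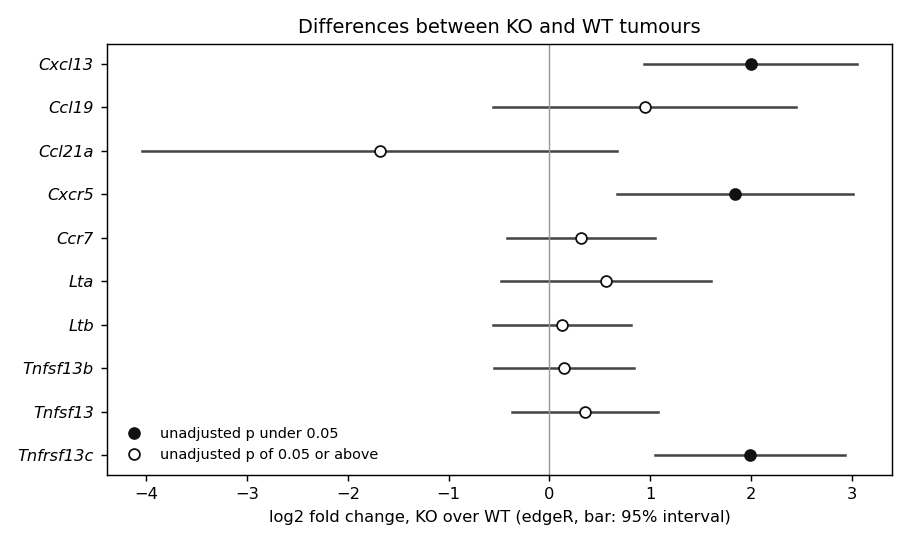
The edgeR log2 fold change of each gene, KO over WT, with its 95% interval. The intervals of Cxcl13, Cxcr5 and Tnfrsf13c lie above 0 and those of the other genes cross it, the widest being that of Ccl21a, from -4.04 to 0.67.

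Cxcl13 (ENSMUSG00000023078, GRCm38 chromosome 5, 95956951 to 95961068, plus strand) encodes the B cell chemoattractant. Its promoter, and those of Tnfrsf13c and Ccl21a, are shown because these are the genes with the largest differences in each direction, from 250 bases before to 50 bases after the RefSeq start (RefSeq, GRCm38.p6). Capitals mark the motif TATAAA, which 13.6% of 32851 promoters of this length hold on either strand. The consensus of NF-kappaB, the factor through which lymphotoxin signals, was also searched on both strands, and 8.46% of the promoters hold it. NF-kappaB sites that depart from this consensus were not searched.

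Cxcl13 promoter, chr5:95956689-95956988, plus strand: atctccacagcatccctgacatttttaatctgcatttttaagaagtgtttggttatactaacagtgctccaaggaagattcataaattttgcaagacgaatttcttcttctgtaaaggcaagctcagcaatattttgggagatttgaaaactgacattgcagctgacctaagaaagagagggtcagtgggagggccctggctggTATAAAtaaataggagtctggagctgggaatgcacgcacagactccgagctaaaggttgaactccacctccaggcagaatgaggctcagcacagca
Tnfrsf13c promoter, chr15:82224331-82224630, minus strand: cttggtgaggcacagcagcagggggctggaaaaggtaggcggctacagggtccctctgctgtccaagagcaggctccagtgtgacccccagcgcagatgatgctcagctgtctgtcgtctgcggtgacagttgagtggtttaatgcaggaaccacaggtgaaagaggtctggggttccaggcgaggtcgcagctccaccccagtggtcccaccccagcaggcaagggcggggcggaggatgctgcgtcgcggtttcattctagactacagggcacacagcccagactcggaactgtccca
Ccl21a promoter, chr4:42773942-42774241, minus strand: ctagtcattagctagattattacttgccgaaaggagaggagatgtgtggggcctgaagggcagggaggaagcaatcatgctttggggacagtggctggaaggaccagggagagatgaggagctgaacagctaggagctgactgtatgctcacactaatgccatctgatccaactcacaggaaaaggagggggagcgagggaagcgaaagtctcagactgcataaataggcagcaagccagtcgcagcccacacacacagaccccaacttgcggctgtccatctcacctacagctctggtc

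In Cxcl13, TATAAA lies from -46 to -41 relative to the start, and the Tnfrsf13c and Ccl21a windows hold neither motif. RefSeq promoters were at hand for 8 of the 10 genes. Among the others, Lta has TATAAA from -167 to -162, and Ltb has the only match to the NF-kappaB consensus, from -87 to -78. Whether promoters without a match, that of Cxcl13 included, hold other NF-kappaB sites was not tested.

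Cxcl13 stood at 28.2, 6.08, 32.7, 42.5, 12.3 and 25.6 CPM in KO replicates A to F, and at 6.47, 4.67, 2.01, 8.19 and 9.31 CPM in WT replicates A to E. In all, 5 KO tumours lay above all WT tumours, and KO replicate B lay within the WT range. The means were 24.6 ± 13.4 CPM (SD, n = 6) and 6.13 ± 2.89 CPM (SD, n = 5), a log2 fold change of 2.00 (SE 0.49, 95% interval 0.94 to 3.05; edgeR adjusted p = 0.0847). Against WT replicates D and E alone it was 1.49 (edgeR adjusted p = 0.279).

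Cxcr5 (ENSMUSG00000047880, chromosome 9, 44511787 to 44561877, minus strand), the CXCL13 receptor of B cells and follicular helper T cells, was at 3.29, 1.93, 4.66, 5.20, 1.87 and 5.52 CPM in KO replicates A to F. In WT replicates A to E it was at 0.304, 0.584, 0.442, 1.29 and 2.45 CPM. Here 4 KO tumours exceeded all WT tumours, and KO replicates B and E lay between WT replicates D and E. The log2 fold change was 1.84 (SE 0.54; edgeR adjusted p = 0.0991). It was 1.00 against WT replicates D and E alone (edgeR adjusted p = 0.354), where the unadjusted edgeR p was 0.0856. In the antisense direction 110 of its 3332 exonic bases overlap Bcl9l. The study's methods call the alignment strand-specific and name no strand setting for the counting.

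Tnfrsf13c (ENSMUSG00000068105, chromosome 15, 82221743 to 82224369, minus strand), the receptor through which BAFF keeps mature B cells alive, had the smallest p of the 10. KO replicates A to F had 4.73, 1.55, 4.63, 3.66, 2.60 and 3.22 CPM, and WT replicates A to E had 0.781, 0.417, 0.491, 0.666 and 1.80 CPM. Only WT replicate E and KO replicate B crossed the gap between the groups. The means were 3.40 ± 1.22 CPM (SD, n = 6) and 0.832 ± 0.561 CPM (SD, n = 5), with a log2 fold change of 1.99 (SE 0.44, 95% interval 1.05 to 2.93; edgeR adjusted p = 0.0786). Against WT replicates D and E alone the log2 fold change was 1.45 (edgeR adjusted p = 0.212).

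Whether these genes passed the threshold changed when single WT tumours were left out, as did the calls over all genes. At an edgeR adjusted p under 0.05 these rose from 3 higher and 0 lower to 203 and 651 without WT replicate D. Without WT replicate E they were 608 and 1248. Unadjusted edgeR p-values without WT replicate D were larger, at 0.00217 for Cxcl13 (0.00127 in all tumours) and 0.00181 for Tnfrsf13c (0.000536). Either omission left WT replicates A, B and C as most of the WT group. Without WT replicate E, 3 genes passed an adjusted p of 0.05 (Cxcl13, 0.0333; Cxcr5, 0.0279; Tnfrsf13c, 0.0251; edgeR), beside 3.63% of all genes, and without WT replicate D, 2 passed (Cxcl13 and Tnfrsf13c), beside 1.21%.

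B cell markers moved with these 3 genes. All 10 genes of a B cell list, among them the B cell receptor subunits Cd79a and Cd79b, the transcription factor Pax5, Ms4a1 and Cr2, were higher in KO tumours at an unadjusted edgeR p under 0.05 (8.57% of all tested genes). At an adjusted p of 0.05 there were 0, and the median log2 fold change was 2.21. The list was chosen with earlier results of these data known. Their summed level was between 63.0 and 153.4 CPM in KO tumours and between 16.2 and 59.5 CPM in WT tumours. The mean log2(CPM + 0.5) of the list was 1.96 higher in KO tumours (exact two-sided permutation test over all arrangements of the tumours, p = 0.00433, 0.0563 after adjustment over 13 marker lists). Against WT replicates D and E alone it was 1.46 higher (exact permutation p = 0.0714). The 28 arrangements of that smaller comparison allow no p below 0.0357. WT replicate E, at 2.34, was level with KO replicates B and E, at 2.31 and 2.40, and the other WT tumours were between 0.461 and 0.981. Its Cxcl13, Cxcr5 and Tnfrsf13c levels were the highest among WT tumours too.

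**Figure D3:**
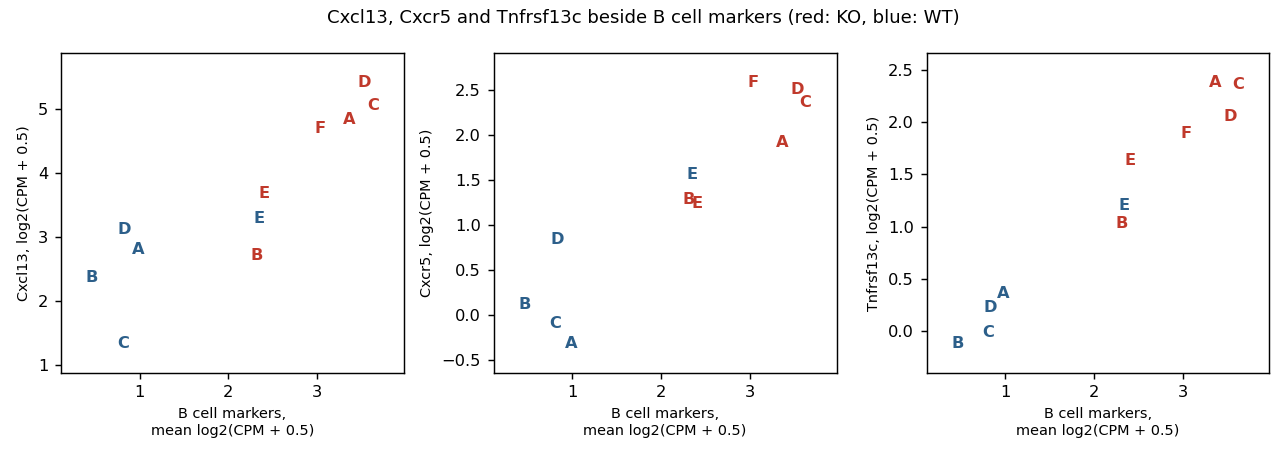
Log2(CPM + 0.5) of Cxcl13, Cxcr5 and Tnfrsf13c in each tumour against the mean log2(CPM + 0.5) of 10 B cell markers, with letters for replicates, KO in red and WT in blue. The B cell level runs from 0.461 in WT replicate B to 3.63 in KO replicate C, and WT replicate E lies among KO replicates B and E.

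Each gene was next set against markers of a cell type known to express it, as a log2 ratio within each tumour, in which library scaling cancels except for the pseudocount of 0.5 CPM. Tnfrsf13c relative to B cell markers differed by -0.396 between KO and WT tumours on the log2 scale (exact permutation p = 0.0325, unadjusted, as for all 10 ratios), and was lower in KO tumours. At a pseudocount of 0.1 in place of 0.5 CPM the difference had an exact permutation p of 0.0541, with the deposited normalised values it was -0.45 (exact permutation p = 0.0519), and against WT replicates D and E alone it was -0.28 (exact permutation p = 0.286). Leaving out KO replicate B, C, D or F or WT replicate A, B or D gave exact permutation p-values of 0.0556 to 0.0635, with differences of -0.40 to -0.33. Cxcr5 relative to B cell markers differed by -0.398 (exact permutation p = 0.156, and 0.0476 without WT replicate A), and neither ratio was higher in KO tumours. Cxcl13 relative to 8 fibroblast markers was 1.39 higher in KO tumours, with -2.69, -4.999, -3.63, -2.73, -3.76 and -3.79 in KO replicates A to F and -4.29, -5.25, -6.15, -4.07 and -5.21 in WT replicates A to E (exact permutation p = 0.0281). Against WT replicates D and E alone this difference was 1.04 (exact permutation p = 0.107), and leaving out WT replicate B, C or E raised the exact permutation p to 0.0619, 0.0714 or 0.0571. The fibroblast list itself was 0.43 higher in KO tumours (exact permutation p = 0.216, and 0.0476 without WT replicate E).

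Follicular dendritic cells are the main source of CXCL13 in B cell follicles. They were examined together with reticular cells, through 1 joint list of 6 genes. Their mean level was 0.81 higher in KO tumours (exact permutation p = 0.0303, 0.0788 after adjustment over the 13 lists, and 0.0556 to 0.0619 before adjustment without KO replicate C or F or WT replicate B). Against WT replicates D and E alone the difference was 0.40 (exact permutation p = 0.357). In the fit of all tumours 2 of 6 were higher at an unadjusted edgeR p under 0.05 (8.57% of all tested genes), with 0 at an adjusted p of 0.05. Those 2, Cr2 and Fcer2a, are also on the B cell list. The other genes, Mfge8, Bst1, Madcam1 and Fcgr2b, had log2 fold changes of 0.27, 0.11, -0.48 and 0.40. Plasma cell markers were 1.15 higher (exact permutation p = 0.0130, 0.0563 after adjustment over the 13 lists). Of these 6 genes, 4 were higher at an unadjusted edgeR p under 0.05 and 0 at an adjusted p of 0.05. Xbp1 went the other way, with a log2 fold change of -0.28. Their summed levels overlapped, at 235.1 to 488.0 CPM in KO tumours and 267.0 to 401.8 CPM in WT tumours. T cell markers differed by -0.108 (exact permutation p = 0.848). Neutrophil markers were 1.63 higher (exact permutation p = 0.00866, 0.0563 after adjustment over the 13 lists). The part of each cell type in the Cxcl13 difference was not tested.

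**Figure D4:**
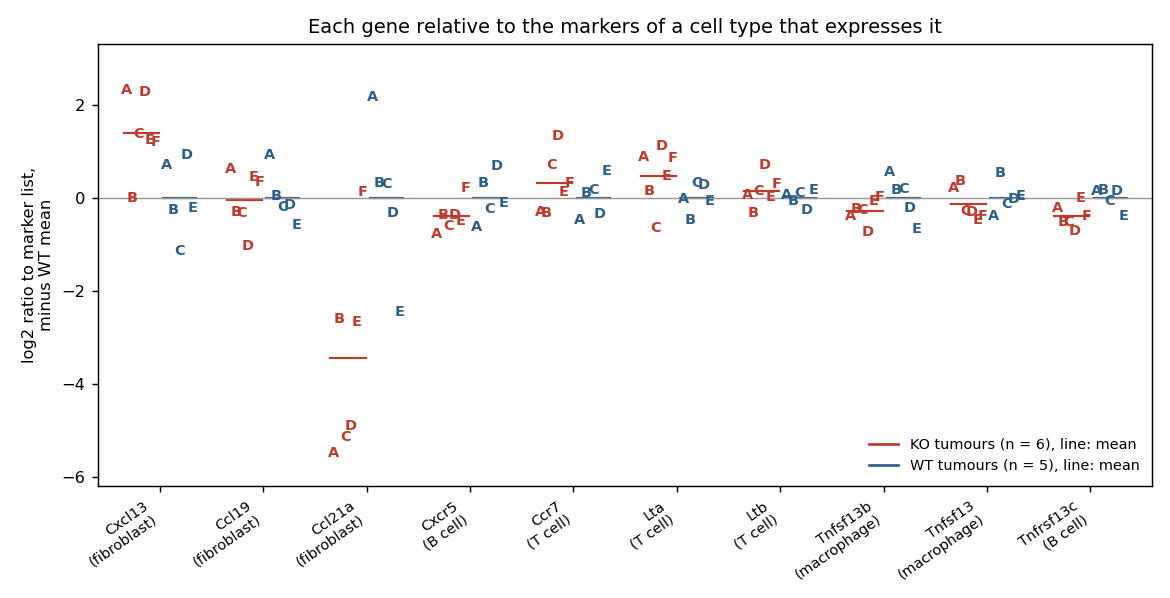
Log2 ratio of each gene to the mean of a marker list, named in parentheses, in each tumour, after subtracting the WT mean of that gene. Cxcl13 lies above the WT mean in most KO tumours, by 1.39 on average, Ccl21a below it, by -3.45 on average, Tnfrsf13c below it in all 6 KO tumours, and Cxcr5 below it in all KO tumours but replicate F.

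Ccl21a (ENSMUSG00000094686, chromosome 4, 42772860 to 42773993, minus strand) encodes a CCR7 ligand made by lymphatic endothelium, high endothelial venules and reticular fibroblasts. It was the one gene of the 10 with a negative log2 fold change. KO replicates A to F had 0.280, 6.04, 1.71, 1.30, 4.67 and 73.8 CPM, and WT replicates A to E had 114.5, 45.9, 40.9, 21.5 and 12.0 CPM. In all, 5 KO tumours were below all WT tumours, whereas KO replicate F was above all WT tumours but replicate A. Highest and lowest tumours differed 409-fold. The spread within genotypes was larger than for 99.7% of the 14898 tested genes with a mean of at least 1 CPM.

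Mean Ccl21a was 14.6 ± 29.1 CPM for KO (SD, n = 6) and 47.0 ± 40.2 CPM for WT (SD, n = 5). The log2 fold change was -1.68 (SE 1.09, 95% interval -4.04 to 0.67; edgeR adjusted p = 0.356). Without KO replicate F it was -4.07 (edgeR adjusted p = 0.0720), and the KO mean was then 2.80 ± 2.44 CPM. Without WT replicate A it was -1.04 (edgeR adjusted p = 0.633), and the WT mean was then 30.1 ± 16.01 CPM. Against WT replicates D and E alone it was -0.20 (edgeR adjusted p = 0.962), with KO replicate F above both and every other KO tumour below both. On log2(CPM + 0.5) the group means differed by -3.02 (exact permutation p = 0.0303), and relative to fibroblast markers by -3.45 (exact permutation p = 0.0173). The difference relative to fibroblast markers was -2.06 against WT replicates D and E alone (exact permutation p = 0.286).

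Lymphatic endothelial markers were set beside Ccl21a. Over the 6 genes Lyve1, Prox1, Flt4, Pdpn, Reln and Mmrn1 the mean log2(CPM + 0.5) was 3.70 in KO replicate F, between 1.23 and 2.09 in the other KO tumours and between 2.20 and 3.07 in WT tumours. KO replicate F thus had the highest level of this list, and KO replicate A had the lowest level of both the list and Ccl21a. Among WT tumours the order was not shared, since replicate E had the highest level of the list, 3.07, with the lowest Ccl21a, and replicate B had the lowest level of the list, 2.20, with the second highest Ccl21a. The list differed by -0.630 between genotypes (exact permutation p = 0.162), and by -0.957 without KO replicate F (exact permutation p = 0.00794). Within it, Reln reached 4.71 CPM and Mmrn1 12.6 CPM in KO replicate F, and both genes were lowest in KO replicate A, at 0 and 0.035 CPM. Of the 6 markers, 0 differed between genotypes at an unadjusted edgeR p under 0.05. The 4 high endothelial venule markers were low, at summed levels of 2.88 to 8.58 CPM in KO tumours and 2.42 to 11.1 CPM in WT tumours. The part of lymphatic vessels in the Ccl21a difference was not tested. Pancreatic islet markers were also higher in KO replicate F than in the other KO tumours, at 3.34 against -1 to -0.833 on the same log2 scale, and among WT tumours they were highest in replicates E and A.

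**Figure D5:**
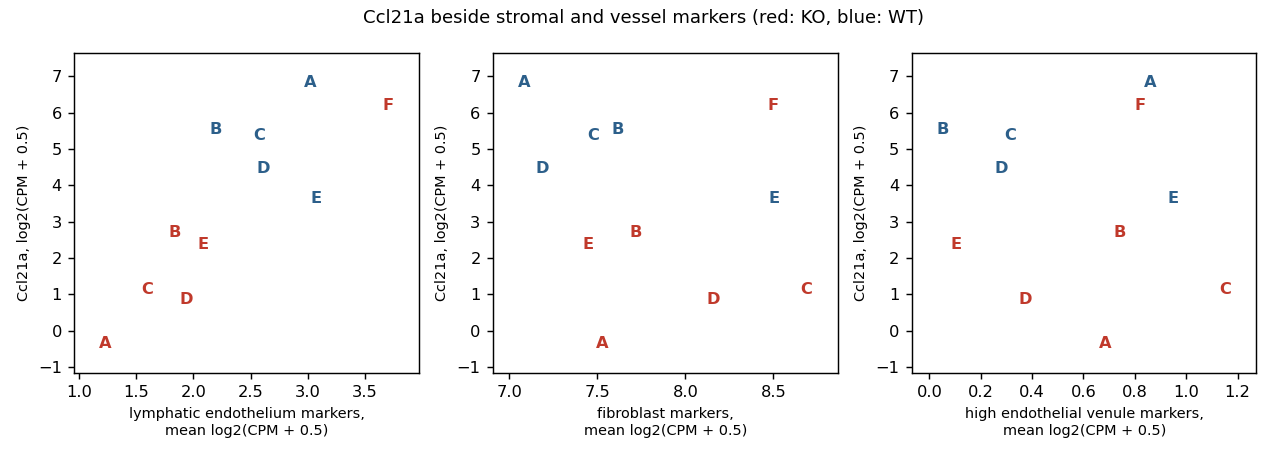
Log2(CPM + 0.5) of Ccl21a in each tumour against the mean log2(CPM + 0.5) of lymphatic endothelium, fibroblast and high endothelial venule markers, with letters for replicates, KO in red and WT in blue. In the first panel KO replicate F lies at 3.70 and KO replicate A at 1.23, the ends of the lymphatic range, which are also near the ends of the Ccl21a range.

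Ccl21a has near-identical copies in the mouse genome, and how reads are divided between them bears on its level. The annotated 402-base transcripts of Ccl21b and Gm10591 match Ccl21a with 2 mismatches each. Counted from 1 at the first base of the copy's transcript, both copies carry T84A and C194T relative to Ccl21a. The windows of 31 bases around these positions are shown, with the differing base in capitals. They are the stretches of the shared coding sequence by which a read can tell Ccl21a from Ccl21b and Gm10591. The copies Gm21541 and Gm13304 differ from Ccl21a at 6 of 870 and 5 of 837 aligned bases, which are not shown.

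Ccl21a, position 84, chr4:42773732-42773762, exon 2, minus strand: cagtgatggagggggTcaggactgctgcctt
Gm10591, position 84: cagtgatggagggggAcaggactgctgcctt
Ccl21a, position 194, spliced across exons 2 and 3, chr4:42773528-42773652 with the intron: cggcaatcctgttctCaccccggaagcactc
Gm10591, position 194: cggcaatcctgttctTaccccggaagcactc

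Ccl21a held 7183 counts over the 11 tumours. Gm10591 held 78, with 31 in KO replicate F, 20 in WT replicate A and 14 in WT replicate E, while Ccl21b, Ccl21c, Gm21541 and Gm13304 held 0 in every tumour. A read that fits several copies equally well was not counted, so the Ccl21a level covers its distinguishable bases only.

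Ccl19 (ENSMUSG00000071005, chromosome 4, 42754525 to 42756577, minus strand), the other CCR7 ligand, lies 16282 bases from Ccl21a and was close to the detection limit. KO replicates A to F had 0.665, 0.211, 0.870, 0.081, 0.487 and 1.41 CPM, and WT replicates A to E had 0.564, 0.334, 0.147, 0.039 and 0.502 CPM. These are between 1 and 35 counts, and 3 counts correspond to 0.0964 to 0.184 CPM. Here 3 KO tumours lay above all WT tumours, and the groups overlapped widely. The log2 fold change was 0.94 (SE 0.70; edgeR adjusted p = 0.417). The pseudogene Ccl19-ps3, which is identical to Ccl19 over 285 bases, held 52 counts against 137 for Ccl19, and the division of reads between them is uncertain.

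Ccr7 (ENSMUSG00000037944, chromosome 11, 99144196 to 99155077, minus strand), the receptor that guides naive T cells and mature dendritic cells, had levels of the same order in both groups. It was at 6.58, 8.50, 19.2, 7.20, 8.53 and 19.7 CPM in KO replicates A to F and at 9.98, 7.43, 8.16, 7.36 and 13.8 CPM in WT replicates A to E. KO replicates C and F were above all WT tumours and the remaining KO values lay within or just below the WT range. The log2 fold change was 0.31 (SE 0.34, 95% interval -0.42 to 1.04; edgeR adjusted p = 0.587). Relative to T cell markers it differed by 0.306 (exact permutation p = 0.385).

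The lymphotoxin genes lie side by side on chromosome 17, 6844 bases apart (Ltb, ENSMUSG00000024399, 35194439 to 35196320, plus strand; Lta, ENSMUSG00000024402, 35203165 to 35205351, minus strand). Ltb, the membrane-anchoring subunit, was at 41.9, 41.7, 62.2, 22.7, 38.9 and 92.7 CPM in KO replicates A to F and at 70.2, 32.5, 38.2, 38.5 and 50.2 CPM in WT replicates A to E. KO tumours held both the highest value, in replicate F, and the lowest, in replicate D. The log2 fold change of Ltb was 0.12 (SE 0.32, 95% interval -0.56 to 0.81; edgeR adjusted p = 0.838), and it was -0.15 without KO replicate F and -0.11 when the ribosomal RNA share was a covariate.

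Lta, which forms the soluble cytokine, was at 2.98, 2.21, 1.18, 0.935, 1.99 and 5.84 CPM in KO replicates A to F and at 2.60, 0.668, 1.57, 2.12 and 1.51 CPM in WT replicates A to E. KO replicates A and F were above all WT tumours. The log2 fold change was 0.56 (SE 0.48; edgeR adjusted p = 0.487). Relative to T cell markers, Lta and Ltb differed by 0.463 and 0.151 (exact permutation p = 0.177 and 0.409), and without KO replicate C that of Lta was 0.69 (exact permutation p = 0.0238).

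Of 19 other genes of lymphotoxin signalling, 1 was higher in KO tumours at an unadjusted edgeR p under 0.05 and 0 were lower (8.57% and 15.5% of all tested genes), with 0 at an adjusted p of 0.05 and a median log2 fold change of 0.12. The smallest p-values were those of Birc3, an inhibitor of apoptosis that NF-kappaB induces (77.9 against 53.5 CPM; log2 fold change 0.54, SE 0.23; edgeR adjusted p = 0.183), of Tnfrsf14, a receptor of the lymphotoxin-related cytokine LIGHT (0.73, SE 0.34; adjusted p = 0.208), and of Tnfsf14, which encodes LIGHT (0.59, SE 0.30; adjusted p = 0.241). The receptor Ltbr averaged 159.1 CPM among KO and 178.2 CPM among WT tumours (log2 fold change -0.16; edgeR adjusted p = 0.557).

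Tnfsf13b (ENSMUSG00000031497, chromosome 8, 10006467 to 10039072, plus strand), encodes BAFF. KO replicates A to F had 7.77, 10.5, 11.6, 6.67, 10.2 and 19.2 CPM, and WT replicates A to E had 16.1, 11.9, 9.29, 6.74 and 5.76 CPM. KO replicate F was above all WT tumours, and the other KO values lay within the WT range. The log2 fold change was 0.15 (SE 0.32, 95% interval -0.55 to 0.84; edgeR adjusted p = 0.807). Without KO replicate F the log2 fold change of Tnfsf13b was -0.09, and with an offset for gene length -0.11. Against WT replicates D and E alone it was 0.82 (edgeR adjusted p = 0.310), with 5 of 6 KO tumours above both. Relative to macrophage markers Tnfsf13b differed by -0.278 (exact permutation p = 0.249, and 0.0333 with -0.45 without WT replicate E), the macrophage list itself being 0.428 higher in KO tumours (exact permutation p = 0.0195, 0.0633 after adjustment over the 13 lists, and 0.0524 unadjusted without WT replicate D and 0.107 against WT replicates D and E alone).

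Tnfsf13 (ENSMUSG00000089669, chromosome 11, 69682846 to 69685784, minus strand), which encodes APRIL, was at 2.28, 3.20, 2.12, 1.63, 1.30 and 2.74 CPM in KO replicates A to F and at 1.39, 3.004, 1.23, 1.33 and 1.77 CPM in WT replicates A to E. KO replicate B was the one tumour above all WT tumours. The log2 fold change was 0.35 (SE 0.34; edgeR adjusted p = 0.532). Of its 1637 exonic bases 983 are shared on the same strand with the annotated readthrough gene Tnfsfm13, where a read cannot be assigned to one gene alone, so its level is uncertain.

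Of 17 further genes of BAFF and APRIL signalling and B cell help, 14 were tested, 5 were higher in KO tumours at an unadjusted edgeR p under 0.05 and 0 were lower (8.57% and 15.5% of all tested genes), with 0 at an adjusted p of 0.05 and a median log2 fold change of 0.48. The smallest p-values were those of the B cell receptor kinases Btk and Syk, both also used by myeloid cells, and of Tnfrsf13b (TACI), another receptor of BAFF and APRIL. Btk averaged 21.8 CPM among KO and 13.0 CPM among WT tumours (log2 fold change 0.74, SE 0.20; edgeR adjusted p = 0.0928), and Syk 72.4 and 41.3 CPM (0.81, SE 0.24; adjusted p = 0.0991). Tnfrsf13b was at 13.8 to 20.4 CPM in KO tumours and 9.34 to 13.7 CPM in WT tumours, without overlap (log2 fold change 0.55, SE 0.17; edgeR adjusted p = 0.105).

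Among 22 genes of lymphocyte positioning, 21 were tested, 2 were higher and 1 was lower at an unadjusted edgeR p under 0.05 (8.57% and 15.5% of all tested genes), with 0 at an adjusted p of 0.05 and a median log2 fold change of 0.37. Cxcr4, the receptor of CXCL12, averaged 33.0 CPM among KO and 23.0 CPM among WT tumours (log2 fold change 0.52, SE 0.19; edgeR adjusted p = 0.128), and Ccl20, the CCR6 ligand, 6.06 and 12.2 CPM (-1.01, SE 0.40; edgeR adjusted p = 0.157).

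Per kilobase of exon not shared with another gene on the same strand the order of mean levels over the 11 tumours was Ccl21a (33.7 CPM per kb), Ltb (31.8), Cxcl13 (14.1), Ccr7 (5.35), Tnfsf13 (3.06), Lta (1.55), Tnfsf13b (1.53), Tnfrsf13c (1.09), Cxcr5 (0.752) and Ccl19 (0.557), all in CPM per kb. Not every step of this order held across tumours. Ccl21a exceeded Ltb in 4 of 11 tumours and Lta exceeded Tnfsf13b in 5 of 11, whereas Ltb exceeded Cxcl13, Cxcl13 exceeded Ccr7, and Tnfsf13 exceeded Lta in 10 of 11 each. The level of Tnfsf13 rests on 654 bases, and over all of its 1637 exonic bases it would be 1.22 CPM per kb, below Lta and Tnfsf13b. The order also differed between genotypes, Ccl21a being highest in WT tumours (54.0 CPM per kb) and in KO tumours (16.8) lower than Ltb (33.0) and Cxcl13 (21.4).

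The genes most like each of the 10 were sought over the 11 tumours after the mean of each genotype had been subtracted from log2 CPM, as Pearson correlations among genes of at least 1 CPM on average, given as a description over 11 points that share library depth. For Ccl21a they were Reln (0.95), Tbx1 (0.94) and Uap1 (0.91). For Tnfrsf13c they were Ms4a1 (0.95), Hpdl (0.92) and Fcmr (0.91), and for Cxcl13 they were Serpina3n (0.85) and Trim62 (0.84). For Cxcr5 they were Kazn (0.95), Slc16a7 (0.93) and Dab2 (0.93), none of which is on the B cell list. The nearest genes of the others were Fuz for Ccl19 (0.93), Nectin4 for Ccr7 (0.92), Whamm for Lta (0.96), Oxct1 for Ltb (0.98), Cabp4 for Tnfsf13b (0.97) and Cyb5d2 for Tnfsf13 (0.92).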

How the data were processed

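RNA from 11 tumours was analysed, grouped by the genotype in the sample titles. Per the study's methods and the submitters' processing notes, Trimmomatic trimmed the stranded paired-end reads, HISAT2 (2.1.0) aligned them to GRCm38, and HTSeq (0.11.2) counted unique reads over exons. The authors deposited raw counts per gene and a normalised table, a signal that equals each count divided by 1 factor per sample (0.514 to 1.42). The raw counts were tested here with edgeR (4.0.16, R 4.3.3; TMM, filterByExpr, quasi-likelihood F-test, Benjamini-Hochberg over 16536 genes, threshold 0.05). DESeq2 (1.42.0) and limma-voom (3.58.1) were alternatives. The test was also run on counts simulated with the same dispersion for all genes. These lacked the ribosomal RNA and gene length differences of WT replicates A, B and C, so that run does not bear on them. Standard errors (SE) were derived as |log2 fold change| / sqrt(F). Marker lists were averaged as log2(CPM + 0.5), and single values and ratios went through two-sided exact permutation tests. Their smallest p is 0.00216 over the 462 arrangements of all 11 tumours. Against WT replicates D and E alone there were 28 arrangements, so that no p could be below 0.0357. Leaving out 1 KO or 1 WT tumour left 252 or 210 arrangements. Lists of 13 cell types were adjusted together, and an adjustment planned over the 10 ratios was left out, because the genes were chosen. Symbols and coordinates come from GENCODE M21, 1-based on GRCm38, and promoters from RefSeq.

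The 10 genes and all lists were chosen with earlier results of these data known. Of the pathway lists the 3 genes with the smallest edgeR p were named, since 0 passed the threshold. Ltbr, Mfge8, Bst1, Madcam1, Fcgr2b and Xbp1 were added after their values were seen. Some genes that these rules or lists hold are counted but not reported here by name. Nothing states that the tumours of a group were handled apart from one another after harvest, so p-values measure the spread between these samples. Counts of 3 correspond to 0.0964 to 0.184 CPM, for counting error only.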

Additional observations from a re-analysis of the deposited data

Results flagged for a closer look

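Samples far from the rest of their genotype were sought by Dixon's test at the 95% level in the levels and ratios of the 10 genes and the levels of 13 marker lists, 66 groups of tumours in all, of which chance would mark about 3.3. Of the 4 groups marked, 0 were levels or ratios of the 10 genes. The B cell marker level of WT replicate E (mean log2(CPM + 0.5)) was 2.34, while the remaining WT tumours had 0.461 to 0.981, and KO replicates B and E had 2.31 and 2.40. The lymphatic endothelium level of KO replicate F was 3.70, against 1.23 to 2.09 in the other KO tumours, in the one KO tumour in which Ccl21a was high. The islet marker level of KO replicate F was 3.34, against -1 to -0.833, and the acinar marker level of KO replicate E was 5.79, against -0.245 to 0.466.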

How the results depend on the processing

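The count of the 10 genes higher in KO tumours at an edgeR adjusted p under 0.05 was 0 as reported, 3 with DESeq2, and between 0 and 3 when 1 tumour was left out, 2 without WT replicate D and 3 without WT replicate E. At an unadjusted p under 0.05 the count of higher genes fell from 3 to 1 with a minimum of 10 counts in every tumour, under which 5 of the 10 genes were tested, and Cxcr5 and Tnfrsf13c were not among these. The count of lower genes was 0, and 1 (Ccl21a) with limma-voom, with the replicate block and without KO replicate F, the range being 0 to 1 when 1 tumour was left out. The replicate letters are shared between genotypes but same-lettered tumours did not deviate together (correlations -0.125 to 0.101), so that the replicate block, under which Ccl21a had a log2 fold change of -3.99, is given for completeness. The 2 genes whose log2 fold change turned sign were Ltb, at -0.17 with the replicate block, -0.11 with the ribosomal RNA covariate and -0.15 to 0.33 when 1 tumour was left out, and Tnfsf13b, at -0.015 with the replicate block, -0.11 with a gene length offset and -0.085 to 0.39 when 1 tumour was left out. The ratio of Ccl19 to fibroblast markers, near 0 as reported, was 0.25 with a pseudocount of 0.1, 0.44 with the deposited normalised values, 0.34 against WT replicates D and E alone and -0.19 to 0.19 when 1 tumour was left out. The ratio of Tnfsf13b to macrophage markers was 0.18 against WT replicates D and E alone. With no marker list the differences were 0.39 for Ccl19, 1.56 for Cxcr5, 1.57 for Tnfrsf13c, 0.15 for Tnfsf13b and 0.28 for Tnfsf13, and with B cell in place of T cell markers they were -1.76 for Ccr7 and -1.92 for Ltb. The T cell marker level ranged from -0.28 to 0.20 when 1 tumour was left out. The cause of these changes was not tested. Ccl19, at 1 to 35 counts, is limited by depth.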
